A study of Danio rerio with 57 samples.

Results

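Whole zebrafish embryos of the wild-type OBI/WIK cross were exposed to 1.3 µM sorafenib from 24 hours post fertilization (hpf) and taken for RNA-seq at 36 hpf, after 12 h in the substance. The comparison holds 6 of the 57 deposited libraries, of which 55 were used: 3 sorafenib libraries, titled T31, T32 and T34, and 3 DMSO libraries of the same age, titled T28, T29 and T30, chosen by their labelled exposure start, sampling time, substance and concentration. Each library was made from a pool of 20 embryos, so error bars and p-values rest on the spread between pools, and the labels do not say whether pools of a group came from separate batches of eggs. All groups, controls included, received the solvent DMSO, and none carried a transgene or a mutation. The study asked which transcripts of the embryo mark an inhibition of blood vessel growth, and for this it also holds sorafenib at 2.4 µM, named C_high beside C_low for 1.3 µM, the mitochondrial complex I inhibitor rotenone at 25 and 50 nM, other ages and an early exposure start.

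Vascular endothelial growth factor (VEGF) ligands bind receptor tyrosine kinases on endothelial cells, and the signal drives tip cells to sprout, endothelial cells to divide and vessels to form a lumen. In the zebrafish trunk the intersegmental vessels sprout from the aorta. Zebrafish use a pair of VEGFR2-type receptors, Kdr and Kdrl, beside Flt1 (VEGFR1), which binds the ligand and limits its signal, and Flt4 (VEGFR3), the receptor for Vegfc. Sorafenib is a drug that blocks several kinases, VEGF and PDGF receptors, KIT and RAF among them.

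The 6 libraries held between 36841266 and 46010544 counted reads, against 20609990 to 86897183 over all 55. In T34, 75.7% of its reads were counted, while the other 5 libraries had between 80.6 and 81.8%. A set of 48 genes, among them zgc:158463, 5_8S_rRNA and rn7sl1, stood more than 10-fold above the highest of the other 5 libraries in T34, and no other library of the 6 had more than 1 such gene. None of these 48 genes passed the test of sorafenib against DMSO. T34 was kept, and it is drawn with its own symbol in the plot of the genes that passed. The number of genes that passed is also given without it, while most list counts and medians are given only with it. In whole embryos, fewer cells of a type and less RNA per cell cannot be told apart, and this holds for every gene group described here.

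Within 12 h of exposure, 8 genes fell and 3 rose among 24246 genes tested, and 6 of the 8 that fell belong to the endothelial lists used here. These 6 were the receptor genes flt1 and FLT4, the junction gene CLDN5, the lumen gene rasip1, the tip-cell gene ESM1 and the transcription factor gene FLI1. The other 2 genes that fell were BCL6B and MCAM, and the 3 that rose were ccn1l1, cyp27a3 and zmp:0000000930. Levels are CPM values, read counts scaled to library size with TMM factors, fold changes are log2 values with their standard error, and a gene passed at an adjusted p under 0.05 in edgeR's quasi-likelihood test. The 11 genes are 0.0454% of those tested, 0.033% for the lower and 0.0124% for the higher direction. At such shares a gene list of the size used here would seldom hold a call, so a list without one says little. At an unadjusted p under 0.05 there were 854 genes (3.52%), 363 lower (1.5%) and 491 higher (2.03%). For each of the 11 genes all 3 sorafenib libraries lay on one side of all 3 DMSO libraries. As the test chose these genes on the same values, this is not separate evidence. Over all genes tested, 7.73% had all sorafenib libraries below all DMSO libraries, and 7.89% above. Leaving out T34 left 1 gene past the threshold, flt1, and 638 genes at an unadjusted p under 0.05. Leaving out any other library of the 6 left between 4 genes, without T29, and 14, without T32. Over the 6 libraries left out in turn, flt1 was called in 6 cases, CLDN5, rasip1 and BCL6B in 5, ccn1l1 in 3, cyp27a3 in 2, ESM1, FLI1, FLT4 and zmp:0000000930 in 1 and MCAM in 0. The count also depended on which other libraries shared the estimate of spread. With only the late libraries sampled at 36 hpf in the fit none passed, 289 genes had an unadjusted p under 0.05, and flt1 kept its log2 change of -1.70 with an adjusted p of 0.268. With only the 2 groups compared 31 genes passed, and without T16, T37 and T49, which stood apart in other groups, 43 did.

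**Figure D1:**
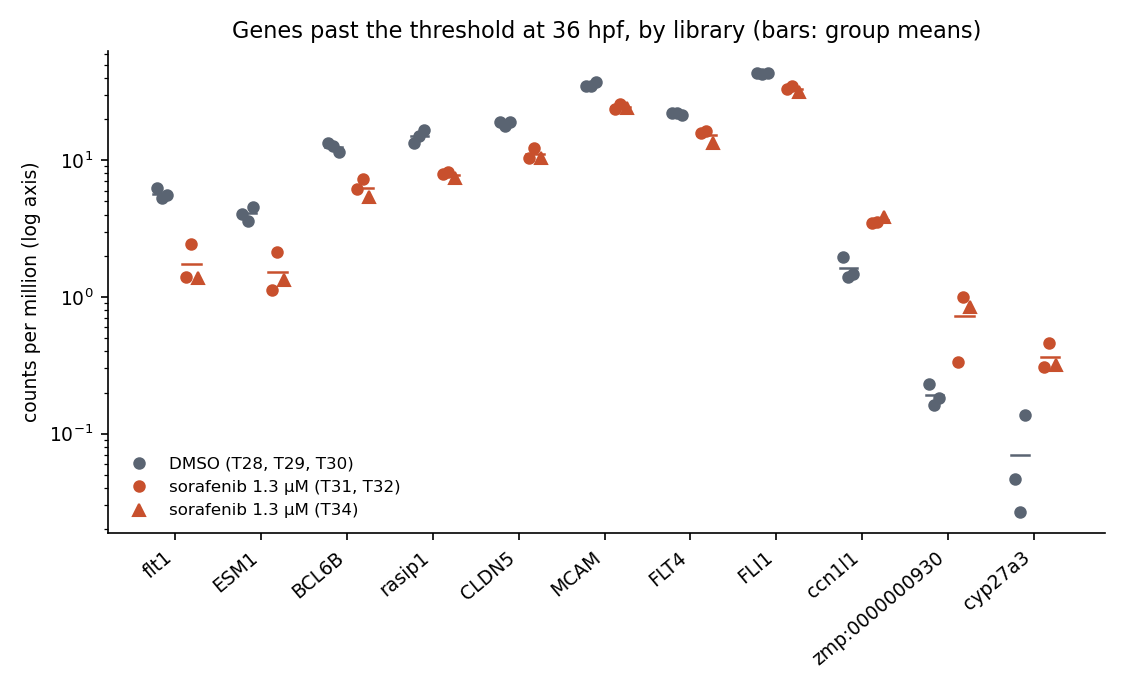
Level of the 11 genes that passed the test, in CPM on a log axis, in the DMSO and the sorafenib 1.3 µM libraries at 36 hpf. Each point is 1 library, T34 is a triangle and the bars are group means. In the 8 genes that fell and the 3 that rose the libraries of both groups do not overlap, as for flt1 with 5.32 to 6.22 CPM in DMSO and 1.38 to 2.44 CPM in sorafenib.

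Among the receptors, flt1 (ENSDARG00000019371) changed most clearly. It had 6.22, 5.32 and 5.53 CPM in DMSO libraries T28, T29 and T30, and 1.40, 2.44 and 1.38 CPM in sorafenib libraries T31, T32 and T34. The lowest DMSO library was therefore above the highest treated one. The mean fell from 5.69 ± 0.470 to 1.74 ± 0.608 CPM (SD, n = 3 each), a log2 change of -1.70 ± 0.22 with an adjusted p of 2.1e-05, and without T34 the adjusted p was 0.0033. FLT4 (ENSDARG00000104453), the VEGF-C receptor gene of veins and lymphatics, had 22.2, 22.2 and 21.4 CPM in DMSO and 15.9, 16.4 and 13.3 CPM in sorafenib. It fell by 0.53 ± 0.11 on the log2 scale, with an adjusted p of 0.0325.

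The VEGFR2-type receptor gene kdrl lay just outside the threshold. Its levels were 32.2, 30.9 and 34.6 CPM in DMSO and 21.9, 21.9 and 21.7 CPM in sorafenib, with no overlap and nearly equal values in the 3 treated libraries. Its log2 difference was -0.58 ± 0.12 with an adjusted p of 0.0552. The other gene of this type, kdr, had 4.99, 5.45 and 5.33 CPM in DMSO and 3.22, 3.94 and 3.67 CPM in sorafenib. The difference of -0.54 for kdr had a standard error of 0.32, and its unadjusted p was 0.096. Of the neuropilins, co-receptors that hold VEGF to its receptors, nrp1b was lower without overlap, at 6.06, 5.48 and 5.76 against 3.00, 4.13 and 3.18 CPM (log2 difference -0.74 ± 0.28, unadjusted p 0.01). The 3 remaining neuropilin genes overlapped between groups and differed little. NRP1 had a log2 difference of -0.11, and the 2 NRP2 genes, ENSDARG00000038446 and ENSDARG00000096546, had -0.06 and -0.02.

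Of the 8 receptor and co-receptor genes, 2 passed the test, both lower, and the log2 difference was below 0 for all 8, with a median of -0.53. Over all genes tested, 48.2% had a log2 difference below 0 and the median was 0.0048. The ligands showed no such difference in level. None of 7 VEGF family ligand genes passed in either direction, none had an unadjusted p under 0.05, and their median was -0.10. The 2 VEGFA genes of the zebrafish, whose protein is the main ligand of VEGFR2, had log2 differences of 0.08 (ENSDARG00000034700) and -0.15 (ENSDARG00000103542).

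Junctions and the lumen hold an endothelial tube together and open it. The tight-junction gene CLDN5 (ENSDARG00000014059) had 18.9, 17.9 and 19.1 CPM in DMSO and 10.4, 12.3 and 10.4 CPM in sorafenib, and fell by 0.76 ± 0.12 on the log2 scale (adjusted p 0.00317). The groups did not overlap. The second gene with this symbol, ENSDARG00000043716, had 29.5, 32.2 and 31.8 CPM in DMSO and 28.0, 26.2 and 27.8 CPM in sorafenib, with a log2 difference of -0.19 ± 0.28. The unequal behaviour of the 2 copies was not tested. The gene rasip1 (ENSDARG00000074829), whose product acts on small GTPases when vessels open their lumen, had 13.3, 15.0 and 16.6 CPM in DMSO and 7.92, 8.21 and 7.39 CPM in sorafenib. It fell by 0.93 ± 0.16 on the log2 scale (adjusted p 0.00395), and the treated libraries lay closer to each other than the DMSO libraries did.

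The adherens-junction gene cdh5, which codes for VE-cadherin and defines endothelium, had 32.7, 36.2 and 37.6 CPM in DMSO and 24.2, 26.2 and 23.7 CPM in sorafenib. Its difference of -0.52 ± 0.16 did not pass over all genes (unadjusted p 0.0028). The same holds for several neighbours in role, all without overlap between the groups. The adhesion gene pecam1 had a log2 difference of -0.45 ± 0.14, ESAM of -0.60 ± 0.17, and TIE1, an orphan receptor that modulates angiopoietin signalling, of -0.36 ± 0.11. For myct1b the difference was -1.15 ± 0.26 with an adjusted p of 0.0947, and for the Src-family kinase gene yrk it was -0.41 ± 0.10. Of the 31 junction, lumen and Tie genes, 2 passed, both lower, and the median was -0.33. At an unadjusted p under 0.05, 14 were lower and none higher, where 1.5% and 2.03% of all genes were. In 19 of them the groups were separate with sorafenib lower (7.73% of all genes). In 2, plvapb and S1PR1, sorafenib was separate and higher (7.89% of all genes). The diaphragm gene plvapb, typical of fenestrated endothelium, had 18.5, 17.6 and 20.4 CPM in DMSO and 21.0, 21.7 and 22.6 CPM in sorafenib (log2 difference 0.21 ± 0.12, unadjusted p 0.08).

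**Figure D2:**
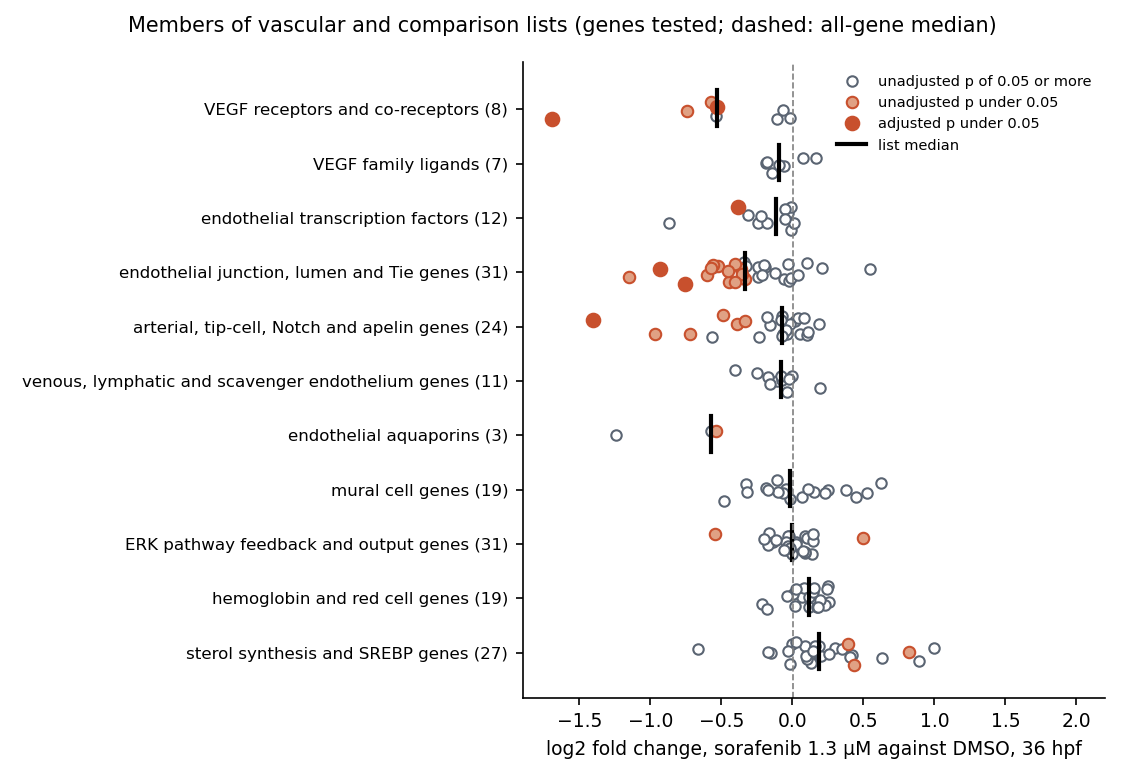
Log2 fold change of each tested member of 11 gene lists, sorafenib 1.3 µM against DMSO at 36 hpf. Each circle is 1 gene, filled by the outcome of its test, black bars are list medians, the dashed line is the median of all genes tested and the number of tested members stands in brackets. The medians of the receptors (-0.53), aquaporins (-0.58) and junction genes (-0.33) lie left of the dashed line, and those of mural cell (-0.02) and ERK pathway genes (-0.00) lie next to it.

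Arterial and tip-cell genes came next in order. ESM1 (ENSDARG00000104370) codes for a secreted proteoglycan of tip cells. It had 4.04, 3.62 and 4.58 CPM in DMSO and 1.12, 2.12 and 1.34 CPM in sorafenib and fell by 1.41 ± 0.28 on the log2 scale (adjusted p 0.023). After flt1 this was the largest of the 8 decreases in fold terms. The Notch ligand gene dll4, which tip cells use to hold their neighbours back from sprouting, had 12.2, 12.2 and 13.9 CPM in DMSO and 9.46, 10.1 and 9.79 CPM in sorafenib. Its difference of -0.39 ± 0.08 gave an adjusted p of 0.0532, the first gene outside the threshold. The apelin receptor gene aplnrb (log2 difference -0.49 ± 0.14) and HEY2, a Notch target of the arterial programme (-0.33 ± 0.12), were also separate and lower without passing. The 2 GJA5 genes, which code for arterial connexins, had -0.72 ± 0.33 (ENSDARG00000040065) and -0.97 ± 0.45 (ENSDARG00000069450). Of 24 genes in this list 1 passed, and the median was -0.07. At an unadjusted p under 0.05, 6 were lower and none higher, where 1.5% and 2.03% of all genes were.

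Of the transcription factors, only FLI1 passed among 12 tested. FLI1 (ENSDARG00000054632), an ETS factor gene of endothelial and blood progenitors, had 43.6, 42.8 and 43.4 CPM in DMSO and 33.0, 35.0 and 31.6 CPM in sorafenib. The decrease of 0.38 ± 0.07 on the log2 scale was small beside that of flt1, and the 3 DMSO libraries were within 1 CPM of each other (adjusted p 0.017). A further ETS gene, ETS1, had a difference of -0.31 ± 0.16. The SoxF genes sox18 and SOX7, which set endothelial identity, had -0.01 and -0.03. TAL1 and LMO2, needed earlier for blood and endothelial progenitors, had -0.01 and 0.01. The list median was -0.12.

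Both remaining genes that fell are outside the lists. BCL6B, a transcriptional repressor gene, had 13.5, 12.6 and 11.6 CPM in DMSO and 6.16, 7.24 and 5.37 CPM in sorafenib, and fell by 1.00 ± 0.18 on the log2 scale (adjusted p 0.00594). MCAM codes for the adhesion protein CD146, which lies at endothelial junctions. It had 34.6, 34.8 and 37.2 CPM in DMSO and 23.6, 25.8 and 24.0 CPM in sorafenib, and fell by 0.54 ± 0.11 (adjusted p 0.0325). No library of either gene crossed into the range of the other group.

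Of the venous, lymphatic and scavenger endothelium genes, none of 11 passed and none had an unadjusted p under 0.05, with a median of -0.08. The log2 difference was below 0 in 10 of them (48.2% of all genes). In 5 the groups were separate with sorafenib lower (7.73% of all genes), and in none with sorafenib higher. The venous factor gene NR2F2 had a log2 difference of -0.02, and the mannose receptor gene mrc1a, found on lymphatic and venous endothelium, had -0.40 ± 0.22. The endothelial aquaporin list, whose products let water through the membrane, held aqp8a.1 and, for aqp1a.1, the genes with the symbol AQP1. None of these 3 genes passed and all 3 were separate and lower (7.73% of all genes). AQP1 (ENSDARG00000023713) had 62.0, 59.1 and 61.4 CPM in DMSO and 32.5, 48.6 and 44.8 CPM in sorafenib, a difference of -0.54 ± 0.17, and aqp8a.1 had -0.58 ± 0.29.

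The receptor, ligand, transcription factor, junction, arterial, venous and aquaporin lists together held 96 genes tested. They are called endothelial genes here, although the VEGF family ligand genes are included. Over all 96 of them, 6 passed, all lower (0.033% of all genes passed in that direction). At an unadjusted p under 0.05, 26 were lower and none higher, where 1.5% and 2.03% of all genes were. In 81 the log2 difference was below 0 (48.2% of all genes). In 45 the treated libraries were all below the DMSO libraries and in 4 all above, where 7.73% and 7.89% of all genes were. The list median was -0.18. These lists were chosen with earlier results of these data known, so their counts are not independent evidence of a direction. The summed level of the 96 genes was 3214 to 3230 CPM in DMSO and 2947 to 3127 CPM in sorafenib. Leaving out each of the 6 libraries in turn gave between 1 (without T34) and 6 endothelial genes past the threshold.

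Pericytes and smooth muscle cells wrap vessels, and their genes did not show a shift of this size. None of 19 mural cell genes passed (0.0454% of all genes), 10 were lower and 9 higher, and the median was -0.02. Downstream of the receptors the ERK pathway induces its own feedback genes. None of 31 such genes passed (0.0454% of all genes), and the median was -0.00. The ERK phosphatase gene DUSP5, active in endothelium, had 5.99, 5.59 and 5.42 CPM in DMSO and 4.31, 3.69 and 3.64 CPM in sorafenib (-0.55 ± 0.21, unadjusted p 0.014). DUSP2, which codes for another phosphatase of the family, had a difference in the other direction (0.49 ± 0.19). Of 20 genes for kinases that sorafenib is known to block, flt1 and FLT4 passed and the median was -0.03.

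Of the genes that rose, ccn1l1 is a relative of CCN1, which codes for a secreted matrix protein, and had 1.97, 1.40 and 1.47 CPM in DMSO and 3.47, 3.55 and 3.86 CPM in sorafenib. It rose by 1.16 ± 0.21 on the log2 scale (adjusted p 0.00731), and its 3 treated libraries were close together. The gene cyp27a3, a member of the CYP27 family of mitochondrial cytochromes P450, was near the lower end of what these libraries detect. It had 0.0464, 0.027 and 0.136 CPM in DMSO and 0.308, 0.461 and 0.316 CPM in sorafenib (log2 change 2.29 ± 0.45, adjusted p 0.023). The other low gene, zmp:0000000930, had 0.232, 0.162 and 0.181 CPM in DMSO and 0.336, 0.992 and 0.85 CPM in sorafenib, and rose by 1.92 ± 0.39 (adjusted p 0.0302). T31 was well below the other 2 treated libraries for this gene. Of 85 cytochrome P450 genes, cyp27a3 was the 1 that passed (0.0454% of all genes).

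The fast-muscle troponin gene TNNI2, with an adjusted p of 0.0734, had 1.65, 0.945 and 1.16 CPM in DMSO and 2.04, 2.40 and 4.59 CPM in sorafenib, highest in T34. Its log2 difference of 1.26 became 0.82, with an adjusted p of 1, without T34, and it passed without T31 (adjusted p 0.0341) and without T32 (0.0447). Of 27 skeletal muscle genes, none passed, 22 were higher (12553 of all 24246 genes tested), and the median was 0.16, or 0.044 without T34. The median of this list against DMSO was 0.13 with rotenone at 25 nM and 0.30 at 50 nM. The gene of the myogenic factor MYOD1 had 24.0, 24.8 and 23.6 CPM in DMSO and 30.0, 35.2 and 28.2 CPM in sorafenib (0.37 ± 0.16, unadjusted p 0.023).

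Sterol synthesis genes had a positive median without a gene past the threshold. Of 27 genes, 21 were higher (12553 of all 24246 genes tested), and the median was 0.19. Separate and higher were 9 of them (7.89% of all genes), and 3 were higher at an unadjusted p under 0.05 (2.03% of all genes). Insig1 holds back the SREBP transcription factors that drive sterol synthesis. Its gene insig1 had 20.6, 18.1 and 20.5 CPM in DMSO and 29.0, 22.1 and 29.1 CPM in sorafenib (0.43 ± 0.17).

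Stress and cell type lists showed no gene past the threshold, where 0.0454% of all genes passed. The medians were 0.08 for 21 unfolded protein and integrated stress response genes, 0.01 for 17 heat shock genes, 0.08 for 38 hypoxia and glycolysis genes, 0.05 for 21 Nrf2 and glutathione genes, and -0.06 for 12 genes of the aryl hydrocarbon receptor battery. For 16 p53 target genes the median was 0.18, with 15 higher (12553 of all 24246 genes tested) and 1 with an unadjusted p under 0.05. Markers of other cells of the embryo were measured in both groups and none of these lists had a called gene. Their medians were 0.12 for hemoglobin and red cell genes, 0.07 for macrophage and neutrophil genes, 0.10 for heart muscle genes, 0.05 for neural genes and 0.21 for lens crystallins. Of 80 cytosolic ribosomal protein genes 78 were higher (12553 of all 24246 genes tested), with a median of 0.11 and none called. In 21 of them the groups were separate with sorafenib higher (7.89% of all genes), and in 1 with sorafenib lower (7.73%). An age score built from genes that rise or fall between 48 and 96 hpf in DMSO was -7.16 ± 0.082 in sorafenib and -7.17 ± 0.053 in DMSO (SD, n = 3 each, exact two-sided permutation p = 0.9, where 0.1 is the smallest value possible). The same score differed by only 0.0029 between DMSO at 48 and 36 hpf, so it cannot show a delay within that window.

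Of 12 genes that the study names for its compounds, none passed here and 10 were lower (48.2% of all genes), with a median of -0.30. The study names these genes for unlike patterns, so the pooled count and median test none of them. It gives kdrl, clec14a and aqp8a.1 as lower over long periods of late exposure to kinase inhibitors. For another kinase inhibitor, it gives ptgs1, MICALL2 and cavin1b as changed with early but not late exposure, and cyp1a as strongly higher. It describes mrc1a and kdr as changing in opposite directions at different ages. This list was chosen by the study partly on these samples and is not independent evidence of its direction. Beside kdrl, kdr, mrc1a and aqp8a.1, it holds MICALL2, whose protein links junction traffic to actin, with 6.36, 5.83 and 7.51 CPM in DMSO and 4.37, 3.94 and 4.03 CPM in sorafenib (-0.68 ± 0.16, adjusted p 0.114). Under the 16 alternative settings kdrl passed in 6, with an adjusted p of 0.0236 under RLE scaling and 0.00125 with DESeq2, and MICALL2 passed in 2, with 0.0144 in DESeq2. The C-type lectin gene clec14a of endothelium had -0.34 ± 0.19 and the caveola gene cavin1b had -0.26 ± 0.20. For ptgs1, a cyclooxygenase gene, and cyp1a, the classic target of the aryl hydrocarbon receptor, the values were -0.01 and 0.00.

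Sorafenib at 2.4 µM was sampled at the same age in libraries T16, T18 and T20. A direct test of 2.4 against 1.3 µM called 171 genes (0.705% of those tested), 146 higher (0.602%) and 25 lower (0.103%) at 2.4 µM, and none of the 11 genes above was among them. The 25 lower genes include zgc:158463, ENSDARG00000113671 and ENSDARG00000112308, which belong to the 48 genes that set T34 apart. Levels of flt1 were 0.944, 1.81 and 1.17 CPM at 2.4 µM, which overlaps the 1.38 to 2.44 CPM at 1.3 µM (log2 difference -0.39 ± 0.25, adjusted p 0.45). For ESM1 the difference between the doses was -0.65 ± 0.32, for BCL6B -0.38 ± 0.18, for FLT4 -0.29 ± 0.11, for CLDN5 -0.28 ± 0.13, for kdrl -0.07 ± 0.12 and for MCAM 0.03 ± 0.11, none of them past the threshold. A difference that misses the threshold does not show that both concentrations act alike on these genes.

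The 2 endothelial genes that differed between the doses were both transcription factor genes. SOX7 had 12.2, 11.8 and 11.4 CPM at 1.3 µM and 8.31, 9.49 and 8.22 CPM at 2.4 µM (-0.44 ± 0.11, adjusted p 0.04). The flow-responsive gene klf2b had 29.3, 31.2 and 27.1 CPM at 1.3 µM and 19.7, 21.5 and 21.4 CPM at 2.4 µM (-0.48 ± 0.11, adjusted p 0.02). At 1.3 µM both overlapped DMSO, which ranged from 11.3 to 12.6 CPM for SOX7 and from 27.9 to 33.4 CPM for klf2b.

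Of the genes higher at 2.4 µM, 4 that were chosen after their values were seen are given here. Of the lists for the unfolded protein and integrated stress response (21 genes) and heat shock (17 genes), none was called between the doses. Other stress lists held calls, all higher at 2.4 µM, where 0.602% of all genes were called higher. These were 2 of 38 hypoxia and glycolysis genes, DDIT4 and ANKRD37, and 1 of 21 Nrf2 and glutathione genes, NFE2L2. DDIT4, an inhibitor of mTORC1 induced by stress, had 66.7, 50.9 and 90.9 CPM at 1.3 µM, 338, 169 and 147 CPM at 2.4 µM and 75.0 to 82.6 CPM in DMSO (2.4 against 1.3 µM 1.65 ± 0.21, adjusted p 1.3e-05). TXNIP, a gene that responds to glucose, differed by 0.77 ± 0.12, and ppp1r15a, whose product ends the integrated stress response, by 1.36 ± 0.21. The sterol regulator insig1 had 60.8, 40.2 and 41.8 CPM at 2.4 µM, against 22.1 to 29.1 CPM at 1.3 µM and 18.1 to 20.6 CPM in DMSO, a difference between the doses of 0.83 ± 0.17 (adjusted p 0.013). T16 was highest of its group for these 4 genes and stood apart from T18 and T20 across genes, with a median absolute log2 deviation from the other libraries of its group of 0.662 against 0.363 and 0.379. Without T16 and 2 other libraries that stood apart in their groups, T37 and T49, the test called 4667 genes. With only the 2 groups, or only the late libraries at 36 hpf, in the fit it called none. Leaving out 1 library at a time gave 10 genes without T32, 17 without T31, 154 without T34, 1209 without T18, 1346 without T16 and 1601 without T20. Over the 6 libraries left out in turn, DDIT4, TXNIP and ppp1r15a were called in 6 cases, insig1 and klf2b in 4 and SOX7 in 3. With limma voom and cyclic loess scaling the split was 49 higher and 44 lower.

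Against the shared DMSO libraries, 2.4 µM called 540 genes (2.23%), of which 411 were higher (1.7%). The lower direction held 129 of them (0.532%), 20 of the 96 endothelial genes included. Its log2 changes were -2.08 ± 0.23 for flt1, -2.06 ± 0.30 for ESM1, -1.39 ± 0.18 for BCL6B, -1.04 ± 0.16 for rasip1, -1.03 ± 0.13 for CLDN5 and -0.64 ± 0.12 for kdrl. As the DMSO libraries enter both comparisons, these values stand beside those at 1.3 µM as a description. The comparison of 2.4 µM with DMSO was not refitted without T16 or under the other alternative settings.

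**Figure D3:**
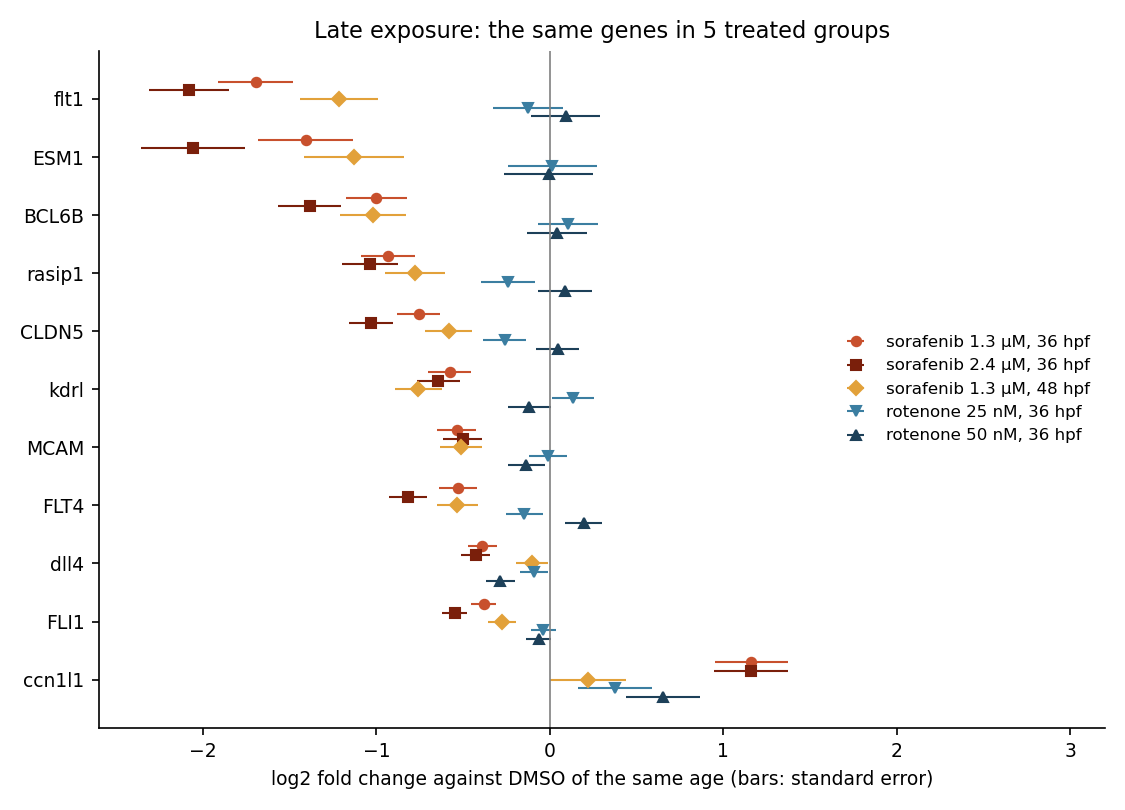
Log2 fold change against DMSO of the same age, with its standard error, for 11 genes in 5 groups: sorafenib at 1.3 and 2.4 µM and rotenone at 25 and 50 nM at 36 hpf, and sorafenib at 1.3 µM at 48 hpf. The 4 groups at 36 hpf share their DMSO libraries. For flt1 the sorafenib groups lie at -1.70, -2.08 and -1.22, and the rotenone groups at -0.13 and 0.09.

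At 48 hpf, after 24 h in 1.3 µM sorafenib, 3 other treated libraries (T56, T59 and T60) and 2 other DMSO libraries (T54 and T55) gave a comparison with no library in common with that at 36 hpf. It called 44 genes (0.181%), 17 of them higher (0.0701%) and 27 lower (0.111%). All 8 genes that fell at 36 hpf were lower at 48 hpf with an unadjusted p under 0.05, where 2.03% of all genes were, and 5 of them passed. These were flt1 (-1.22 ± 0.22), BCL6B (-1.02 ± 0.19), rasip1 (-0.78 ± 0.17), CLDN5 (-0.58 ± 0.13) and FLT4 (-0.53 ± 0.12). ESM1 (-1.13 ± 0.29), MCAM (-0.51 ± 0.12) and FLI1 (-0.28 ± 0.08) did not pass. The level of flt1 was 7.51 and 8.34 CPM in DMSO and 4.74, 3.43 and 2.08 CPM in sorafenib at 48 hpf, a wider spread of treated libraries than at 36 hpf. Among the genes just outside the threshold at 36 hpf, kdrl passed at 48 hpf, with 39.4 and 38.2 against 25.4, 23.9 and 19.6 CPM (-0.76 ± 0.14, adjusted p 0.0069). By contrast, dll4 had 20.8 and 19.2 CPM in DMSO and 19.4, 18.0 and 18.6 CPM in sorafenib (-0.10 ± 0.09).

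Of the 26 endothelial genes that were lower at 36 hpf at an unadjusted p under 0.05, 25 were lower again at 48 hpf, 19 of them with an unadjusted p under 0.05 and 8 past the threshold, with medians of -0.53 at 36 hpf and -0.62 at 48 hpf. Of the other 70 endothelial genes 47 were lower at 48 hpf, 14 with an unadjusted p under 0.05 and 4 past the threshold, with a median of -0.09. Over all 24246 genes tested, 12157 were lower at 48 hpf, 491 with an unadjusted p under 0.05 and 27 past the threshold. The 3 genes that rose at 36 hpf did not pass at 48 hpf. For ccn1l1 the change was 0.22 ± 0.22, and its DMSO level had reached 3.53 and 4.57 CPM by then. The change of cyp27a3 was -0.63, with 0.711 and 0.681 CPM in DMSO at 48 hpf. That of zmp:0000000930 was 1.33 ± 0.33 (adjusted p 0.0946), in the same direction as at 36 hpf. Its DMSO level was 0.817 and 0.794 CPM at 48 hpf.

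**Figure D4:**
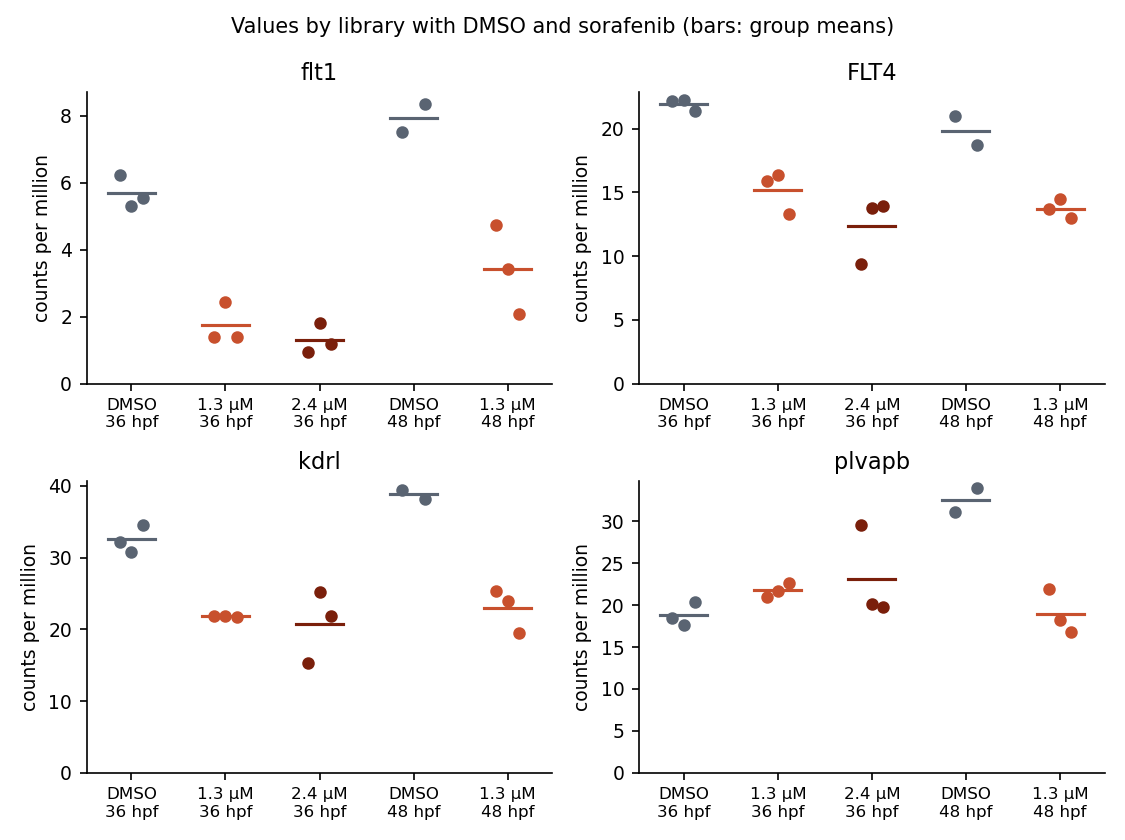
Level in CPM of flt1, FLT4, kdrl and plvapb in each library of DMSO and sorafenib 1.3 and 2.4 µM at 36 hpf and of DMSO and sorafenib 1.3 µM at 48 hpf. Each point is 1 library and bars are group means. For plvapb, DMSO lies at 17.6 to 20.4 CPM at 36 hpf and at 31.1 and 33.9 CPM at 48 hpf, while sorafenib 1.3 µM lies at 21.0 to 22.6 and at 16.7 to 22.0 CPM.

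The difference between the ages was tested as an interaction, which called 1 gene (0.00412%), plvapb, with a lower change at 48 hpf. In the other direction, 389 genes (1.6%) had a higher change at 48 hpf at an unadjusted p under 0.05. The sorafenib libraries at 48 hpf had, for plvapb, 22.0, 18.2 and 16.7 CPM against 31.1 and 33.9 CPM in DMSO, a log2 change of -0.78 ± 0.13 (adjusted p 0.0034). At 36 hpf the difference had been 0.21 ± 0.12, and the change from age to age was -0.99 ± 0.17 (adjusted p 0.0248). Both DMSO libraries at 48 hpf were above all 3 at 36 hpf, while the treated libraries overlapped between the ages. The interaction was 0.48 ± 0.31 for flt1, -0.00 ± 0.16 for FLT4, -0.18 ± 0.18 for kdrl, -0.94 ± 0.30 for ccn1l1 and -2.92 for cyp27a3 (adjusted p 0.0552), none past the threshold. With only the 4 groups of this test in the fit, 19 genes were called. The call of plvapb was lost under RLE scaling (adjusted p 0.0679) and without T28, T29, T32, T34, T54, T55, T59 or T60 (adjusted p of 0.0802 to 0.258), with the log2 value between -0.90 and -1.05 in these fits.

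Sorafenib was also set directly against rotenone at 25 nM, the lower concentration of that substance, at the same age (libraries T21, T23 and T24). This test called 178 genes (0.734%), 10 higher (0.0412%) and 168 lower (0.693%) with sorafenib. The 10 higher genes include zgc:158463 and ENSDARG00000113671, which belong to the 48 genes that set T34 apart. The sorafenib libraries enter both this test and that against DMSO, so calls shared by them are not independent evidence. Of the 11 genes that changed against DMSO, 8 were among the 178 called. The lower ones were flt1 (-1.57 ± 0.22, adjusted p 7.8e-05), ESM1 (-1.42 ± 0.27), BCL6B (-1.11 ± 0.18), rasip1 (-0.69 ± 0.16), MCAM (-0.53 ± 0.11), CLDN5 (-0.49 ± 0.12) and FLI1 (-0.34 ± 0.07), and ccn1l1 was higher (0.79 ± 0.20). Levels of flt1 with rotenone were 5.88, 5.17 and 4.62 CPM, near the 5.32 to 6.22 CPM of DMSO. The receptor gene kdrl, just outside the threshold against DMSO, differed from rotenone with 38.1, 33.9 and 35.1 CPM in that group (-0.71 ± 0.12, adjusted p 0.0029), and cdh5 did too (-0.77 ± 0.16, adjusted p 0.016). FLT4 (-0.38 ± 0.11, adjusted p 0.0685), cyp27a3 and zmp:0000000930 did not pass. The rotenone libraries had 0.26, 0.17 and 0.327 CPM of cyp27a3. These lie above the 0.027 to 0.136 CPM of DMSO and overlap the 0.308 to 0.461 CPM of sorafenib. Against the DMSO libraries at 36 hpf, cyp27a3 differed by 1.79 on the log2 scale with rotenone at 25 nM and by 1.22 at 50 nM. For ccn1l1 these differences were 0.38 and 0.65, and for zmp:0000000930 they were 0.65 and 0.77. None of them passed.

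In all, 9 of the 96 endothelial genes were lower with sorafenib than with rotenone and none was higher. Against DMSO, rotenone called none of the 96 at 25 nM, where 21 genes were called over all genes (0.0866%), nor at 50 nM, where 96 were (0.396%). At an unadjusted p under 0.05, 6 endothelial genes were higher and 4 lower with rotenone at 25 nM, and 8 higher and 4 lower at 50 nM. These shares were 6.93% and 1.35% of all genes at 25 nM, and 10% and 4.92% at 50 nM. With only the late libraries at 36 hpf in the fit, the direct test of sorafenib against rotenone called none, and with only the 2 groups it called 3223 genes. Leaving out 1 library gave 9 genes without T21, 10 without T31, 17 without T32, 55 without T23, 71 without T34 and 98 without T24. Of those 6 cases flt1, BCL6B and kdrl were called in 6, ESM1 in 4, FLI1 in 3, MCAM in 2, rasip1 in 1, and CLDN5 and ccn1l1 in 0. With limma voom and cyclic loess scaling the split was 23 higher and 64 lower. The 1.3 µM and 25 nM exposures are each substance's lower concentration and are not matched in molar terms. Nor do they carry the same effect label, as the library titles give EC50 for sorafenib 1.3 µM and LC10 for rotenone 25 nM.

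RC3H1 and KIT, 2 genes outside the vascular lists chosen after their values were seen, separated libraries in the tests against 2.4 µM and against rotenone. RC3H1 (ENSDARG00000062550), an RNA-binding regulator gene, had 1.18 to 2.09 CPM in all 6 libraries of DMSO and sorafenib 1.3 µM. It had 10.3 CPM in T18, 12.2 CPM in T20 and 1.39 CPM in T16 of the 2.4 µM group, and 8.85, 8.74 and 6.12 CPM in the rotenone group. KIT, a receptor gene of pigment and blood cells, had 2.33 to 3.05 CPM in the 6 libraries, 7.14 and 7.83 CPM in T18 and T20, 1.62 CPM in T16, and 7.34, 7.07 and 5.55 CPM with rotenone. With rotenone at 50 nM (T37, T38 and T40) RC3H1 had 2.46, 3.47 and 4.09 CPM and KIT had 2.73, 3.64 and 5.5 CPM, mostly between those levels. Other genes did so too. GAB2, mazb, ITCH, DGKG, CPEB3 and prkar1ab were called in both tests, lower at 1.3 µM than at 2.4 µM and than with rotenone. GAB2 had 0.56 to 1.03 CPM in the 6 libraries, 3.52 and 3.45 CPM in T18 and T20, 0.539 CPM in T16, and 4.51, 2.72 and 2.27 CPM with rotenone. The 171 and 178 genes called in these 2 tests include genes of this pattern, and its part in the counts was not tested. The 540 genes called at 2.4 µM against DMSO also include RC3H1 (2.11), GAB2 (1.46) and mazb (1.39), but not KIT (0.92, adjusted p 0.0804). In the test of sorafenib 1.3 µM against DMSO, T28, T29 and T30 are all DMSO and T31, T32 and T34 all sorafenib. The log2 differences there were -0.33 for RC3H1 and -0.28 for KIT. For GAB2, mazb, ITCH, DGKG, CPEB3 and prkar1ab they were -0.33, -0.13, -0.72, -0.74, -0.44 and -0.08. Whether the pattern enters that test was not tested.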

How the data were processed

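RNA was taken from whole embryos, 20 per library, and sequenced as stranded, paired-end libraries. Per the study's methods the authors mapped reads onto the GRCz11 genome in Galaxy (HISAT2 2.1.0), kept those of high mapping quality and counted them per Ensembl gene with featureCounts 2.0.3, and the deposited table holds these raw counts, not normalized. The annotation release and strand setting of the counting are not given in the sources used here, so genes that overlap and close paralogs may share reads. A second deposited file gives a read count per library, used only for the share of reads counted. No column with the authors' own comparisons was used.

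Of 32520 gene identifiers 29220 had a symbol, 477 taken from the study's own gene lists and 28743 from a reference name table, many of the latter in capitals. As in the study's DESeq2 model, 55 libraries in 18 groups were fitted together, without T51 and an early DMSO library with 13 counts. The study's late-exposure gene sets came instead from models over time with an effect cutoff. Those calls and the ones given here rest on unlike measures. Genes were kept by filterByExpr, scaled with TMM and tested with edgeR 4.0.16 (R 4.3.3) by its quasi-likelihood F test with 1 coefficient per group, with Benjamini-Hochberg adjustment over 24246 genes and a threshold of 0.05. The script was tested on simulated data. Each standard error was taken as the log2 value over the root of F. CPM are TMM-scaled, with no prior count. Gene lists were described by counts and medians, with no set test. A listed name without a match was looked up as a symbol in capitals without its paralog suffix. All genes with that symbol then entered the list. Replicates of a group differed by more than sampling noise, with a mean chi-square per gene of 3.38 to 7.86, and of 27.9 and 29.4 for pairs with T34. The members and lists were chosen with earlier results of these data known. Named genes were called genes with their list neighbours by role, up to 15 per direction by p and 10 by fold change, and those the study names. SOX7, klf2b, DDIT4, TXNIP, ppp1r15a, RC3H1, KIT, TNNI2 and MYOD1 were added after their values were seen. The same holds for GAB2, mazb, ITCH, DGKG, CPEB3 and prkar1ab. Alternatives were DESeq2 1.42.0, limma 3.58.1 with voom and cyclic loess, RLE size factors, other filters, other sets of libraries and each replicate left out. No sequence or coordinate was used here.
A result that names a withheld item is not reported here.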

Additional observations from a re-analysis of the deposited data

Results flagged for a closer look

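The change of plvapb with sorafenib 1.3 µM differed between the ages in the test of the difference itself. The change at 48 hpf minus the change at 36 hpf was -0.99 ± 0.17 on the log2 scale (edgeR, adjusted p 0.0248 over 24246 genes). The 48 hpf side rests on 2 DMSO libraries, 31.1 and 33.9 CPM, and 3 sorafenib libraries, 16.7 to 22.0 CPM. The 36 hpf side rests on 3 and 3, 17.6 to 20.4 and 21.0 to 22.6 CPM. In the 2.4 µM group at 36 hpf, T16 had 29.6 CPM, above T18 and T20 with 20.1 and 19.7 CPM.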

How the results depend on the processing

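The 36 hpf comparison of sorafenib 1.3 µM with DMSO, with 11 genes called and 6 of them endothelial and lower, gave 31 and 10 with only the groups compared, 0 and 0 with only the late 36 hpf libraries (289 genes at an unadjusted p under 0.05), 43 and 15 without T16, T37 and T49, and 1 to 14 and 1 to 6 with 1 replicate left out. DESeq2 called 28 genes, 13 higher and 15 lower, and limma voom 7. The 13 higher genes of DESeq2 include several of the 48 genes that set T34 apart. These were zgc:158463, ENSDARG00000113671, ENSDARG00000111123, ENSDARG00000112308, ENSDARG00000114910 and a Metazoa_SRP gene (ENSDARG00000114737). RLE size factors, both other filters and T51 added back gave 10 to 12 genes. Without T34, T16, T37 and T49, a setting chosen after seeing the data, 16 were called. The test of 2.4 against 1.3 µM, with 171 genes, gave 0 with only the groups compared and 0 with only the late 36 hpf libraries, 4667 without T16, T37 and T49, 93 with voom, 536 with DESeq2 and 10 to 1601 with 1 replicate left out. The difference between the ages, with 1 gene, gave 0 with RLE, 19 with only its groups, 2 with T51, without T16, T37 and T49 and with DESeq2, and 0 to 2 with 1 replicate left out. Sorafenib against rotenone, with 178 genes, gave 3223 with only the groups compared, 0 with only the late 36 hpf libraries, 3173 without T16, T37 and T49, 87 with voom, 468 with DESeq2 and 9 to 98 with 1 replicate left out. The cause was not tested in any of these cases.

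The 11 called genes kept their direction under all 16 alternatives run, and flt1 was past the threshold in 15 of them, with log2 changes between -2.03 and -1.54. Without T34, the adjusted p was 0.0743 for CLDN5, rasip1, ccn1l1 and cyp27a3, 0.126 for BCL6B and 0.208 to 0.518 for the other 5. Of the genes named, 8 with values near 0 changed sign. That of cyp1a was -0.0036 with only the groups compared, -0.019 with voom and -0.19 to 0.14 with 1 replicate left out. That of SOX7 was -0.080 to 0.00037 and that of klf2b -0.11 to 0.026 with 1 replicate left out, and klf2b had 0.011 without T34, T16, T37 and T49. That of ptgs1 was 0.0049 with RLE and with DESeq2, 0.0034 with T51, -0.033 to 0.015 with 1 replicate left out, 0.015 without T34, T16, T37 and T49 and 0.011 with voom. With 1 replicate left out, sox18 had -0.077 to 0.057, TAL1 -0.046 to 0.028, LMO2 -0.044 to 0.063 and NR2F2 -0.041 to 0.0028. Without T34, T16, T37 and T49, TAL1 had 0.0014, LMO2 -0.035 and NR2F2 0.012, and sox18 had 0.011 with voom. Of 238 list medians under other settings, 34 moved by more than the SD between libraries. The age score difference of 0.0074 became 0.0058 with 50 genes a direction. No paired analysis was possible because the treated libraries carry no replicate number that DMSO libraries share. At 36841266 counts or more per library, the calls of low genes such as cyp27a3, with 0.027 to 0.461 CPM, rest on few reads.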

Other observations

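Sterol synthesis genes, without a call at 36 hpf and 1.3 µM, were called in both neighbouring comparisons. At 48 hpf 4 of 27 passed, all higher, where 0.0701% of all genes did, with a median of 0.82. Of these, LSS, which codes for lanosterol synthase, rose by 1.85 ± 0.37 on the log2 scale (edgeR, adjusted p 0.0122), TM7SF2, a sterol reductase gene, by 1.37 ± 0.27, and MVD, a mevalonate pathway enzyme gene, by 1.22 ± 0.26. At 36 hpf their log2 differences were 0.63 for LSS, 0.35 for TM7SF2 and 0.26 for MVD. The interaction of age and treatment passed for none of the 27, and 11 had an unadjusted p under 0.05, all higher at 48 hpf, as were 1.6% of all genes. At 2.4 µM and 36 hpf 6 of 27 passed, all higher, where 1.7% of all genes did, with a median of 0.51.

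The RNAs that set T34 apart were summed over 48 genes, 36 of them with a symbol. They made up 9028 CPM in T34 and between 176 and 326 CPM in the other 5 libraries. The gene zgc:158463 had 886 CPM in T34 and 9.37 to 16.3 CPM in the others, 5_8S_rRNA had 168 against 2.51 to 5.78 CPM, and rn7sl1, an RNA of the signal recognition particle, had 130 against 2.02 to 3.53 CPM.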
